A study of Homo sapiens with 6 samples.

Results

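The 10 genes described here carry iron into cells, store it, release it from storage, export it, free it from heme or control the mRNAs that do so. They were taken by symbol for their known roles (TFRC, SLC11A2, SLC39A14, FTH1, FTL, NCOA4, SLC40A1, HMOX1, ACO1 and IREB2), by a rule that sets no threshold on measured values, and all 10 were found among the 62703 Ensembl gene IDs of the deposited table. RNA was sequenced from human osteosarcoma cells of the line MNNG/HOS Cl #5, of WT genotype, in 2 groups of 3 libraries. In the 3D group, cells were seeded into a scaffold of demineralised bone matrix, and in the 2D group they were grown flat, each for 7 days. Both groups were kept in high-glucose DMEM with 4 mM glutamine and 10% fetal bovine serum and with penicillin-streptomycin, so no group differed in added iron or in any agent as far as the labels say. The design rests on 1 cell line, and nothing in the labels says that replicates came from separate cultures, so p-values measure the spread between these libraries, which may be technical.

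Cells take up iron bound to transferrin through the transferrin receptor, release it in endosomes and pass it to the cytosol, where ferritin, a shell of heavy and light chains, stores what is not used. The iron regulatory proteins IRP1 and IRP2, encoded by ACO1 and IREB2, bind a small RNA hairpin, the iron-responsive element, when iron is scarce. Bound at the 5′ end of ferritin and ferroportin mRNAs they block translation, and bound in the 3′ UTR of the transferrin receptor mRNA they protect it from decay. Part of this control therefore acts on protein synthesis, which mRNA levels do not show.

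The hairpins themselves are printed because they divide the 10 genes by the place where these proteins bind. All are DNA letters of the mRNA strand, 5′ to 3′, from GENCODE 29 transcripts on GRCh38, and capitals mark the bulged C and the loop of 6 bases. The pattern asked for that C, 5 paired bases (G with T allowed) and a loop that reads CAGTGN.
TFRC 3′ UTR, chr3:196050979-196051007, minus strand: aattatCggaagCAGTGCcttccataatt
TFRC 3′ UTR, chr3:196050575-196050603, minus strand: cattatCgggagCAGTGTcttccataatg
TFRC 3′ UTR, chr3:196050510-196050538, minus strand: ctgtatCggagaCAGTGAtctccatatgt
TFRC 3′ UTR, chr3:196050463-196050491, minus strand: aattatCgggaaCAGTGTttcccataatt
FTH1 5′ UTR, chr11:61967574-61967602, minus strand: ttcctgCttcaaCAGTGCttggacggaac
FTL 5′ UTR, chr19:48965335-48965363, plus strand: ctcttgCttcaaCAGTGTttggacggaac
SLC40A1 5′ UTR, chr2:189580661-189580689, minus strand: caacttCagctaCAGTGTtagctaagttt

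These 4 of the 10 genes held the pattern, against 291 (1.48%) of 19669 protein-coding genes. The opposite strand of the same transcripts held it in 299 genes (1.52%), so a match by itself does not mark a working element. In a 5′ UTR it was found in 36 genes (0.183%) and in a 3′ UTR in 132 (0.671%). An isoform of SLC11A2 is known to carry an element with an extra bulge, which this pattern does not allow for. Elements of the other genes that depart from the pattern, TFRC included, would be missed as well. The printed sites therefore need not be all that a gene has.

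Of the 9 genes of the set that could be tested, 6 were higher in 3D (TFRC, SLC39A14, NCOA4, HMOX1, IREB2 and ACO1), 1 was lower (FTL) and 2 did not pass (FTH1 and SLC11A2). SLC40A1 lay under the minimum of 1 FPKM in at least 3 libraries and was not tested. FPKM counts sequenced fragments relative to gene length in kilobases and library size. The test was limma's moderated test on log2(FPKM + 1) over 12843 genes, 2-sided, with Benjamini-Hochberg adjustment and a threshold of 0.05. Calls were common in these data: 33.3% of all tested genes were called higher and 18.1% lower. In 60.9% of them the 3D and 2D values did not overlap, as in 7 of the 9 tested genes of the set. The median log2 change was 0.68 over the 9 genes and 0.14 over all tested genes. Scaling the libraries by median ratios brought the median of all genes to 0.02 and the share of calls that were higher from 64.7% to 51.5%, with 25.3% of all genes called higher and 23.8% lower. It left the 7 calls in the set in place and turned the sign of FTH1 alone, which passed on neither scale. In bulk RNA, fewer cells of a type and less RNA per cell cannot be told apart.

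**Figure D1:**
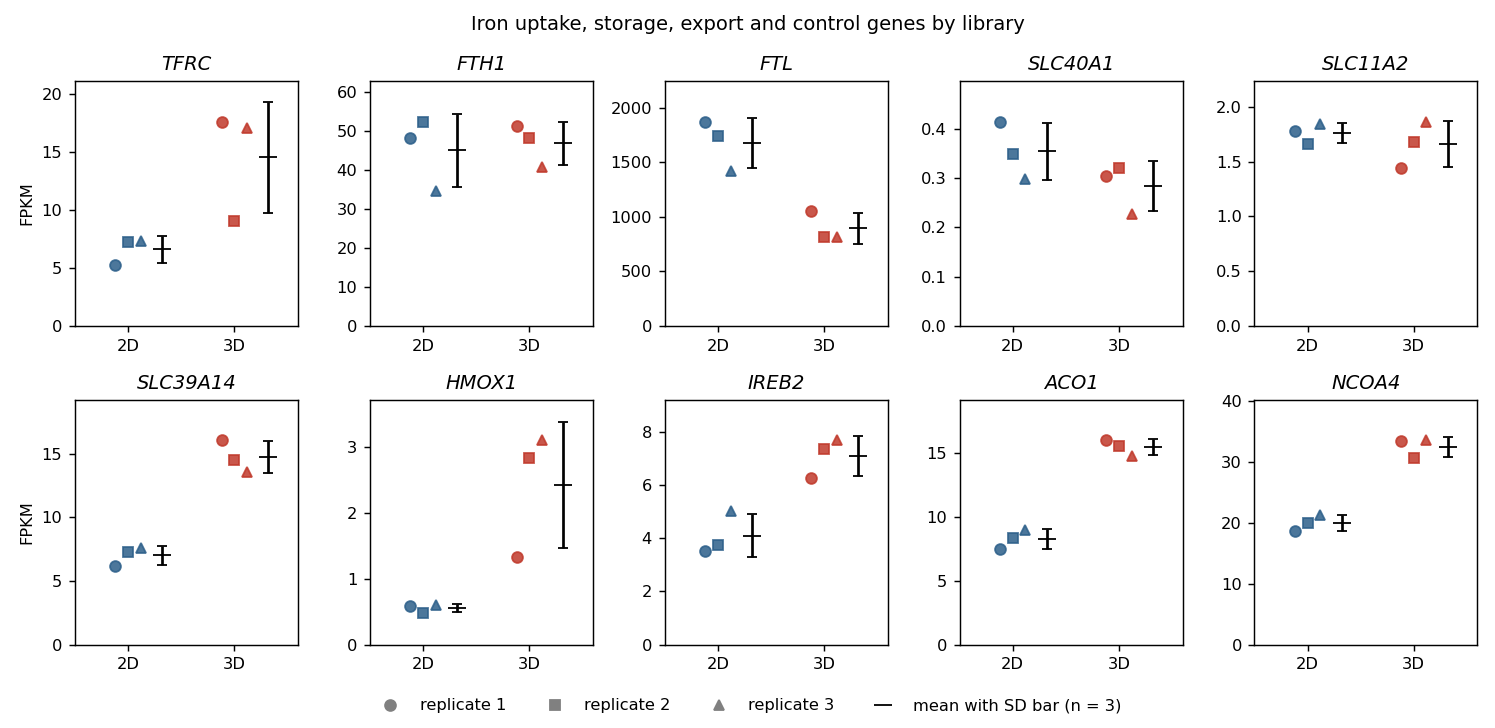
FPKM (vertical axes, linear and starting at 0) of each of the 10 genes in every library, with 2D in blue, 3D in red, marker shapes for replicates 1 to 3 and bars for the mean and SD of 3 libraries. The red points lie above the blue ones for TFRC, SLC39A14, HMOX1, IREB2, ACO1 and NCOA4, below them for FTL, and among them for FTH1, SLC40A1 and SLC11A2.

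TFRC, the transferrin receptor (ENSG00000072274, chr3:196027183-196082189, minus strand), was higher in 3D. Its level was 17.6, 9.07 and 17.1 FPKM in 3D replicates 1, 2 and 3, and 5.28, 7.22 and 7.35 FPKM in the 2D ones. All 3D libraries lay above all 2D libraries, but 3D replicate 2 was far nearer to the 2D values than to the other 3D libraries. The mean was 14.6 ± 4.79 FPKM (SD, n = 3) in 3D and 6.62 ± 1.16 FPKM (SD, n = 3) in 2D, a ratio of 2.21. In log2 terms the change was 0.99 (SE 0.25), with an adjusted p of 0.0150. It was the one call of the set that alternatives ended: without 2D replicate 1 the adjusted p was 0.051 and with no filter on low values it was 0.0557, while without 3D replicate 2 the change was 1.28 with an adjusted p of 0.00302.

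By the likeness of their log2(FPKM + 1) values over the 6 libraries, each centred on its own mean, the 3 protein-coding genes nearest to TFRC were SHROOM2, TSN and CBLL1. Their mean absolute differences from TFRC were 0.0717, 0.113 and 0.133. SHROOM2 rose from a mean of 1.68 FPKM in 2D to 4.69 FPKM in 3D.

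SLC39A14, the ZIP14 carrier of zinc, manganese and iron not bound to transferrin (ENSG00000104635, chr8:22367249-22434129, plus strand), was higher in 3D. It measured 16.1, 14.5 and 13.6 FPKM in 3D replicates 1 to 3, and 6.18, 7.26 and 7.57 FPKM in 2D. The lowest 3D value was well above the highest 2D value. The means were 14.7 ± 1.248 and 7.00 ± 0.73 FPKM (SD, n = 3 each), a ratio of 2.10, and the log2 change was 0.98 (SE 0.11, adjusted p = 0.000675).

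SLC11A2, which encodes DMT1, the transporter that moves iron out of endosomes (ENSG00000110911, chr12:50979401-51028566, minus strand), did not pass. It measured 1.44, 1.68 and 1.86 FPKM in 3D and 1.78, 1.66 and 1.84 FPKM in 2D, and the groups overlapped throughout. The log2 change was -0.05 with a 95% confidence interval of -0.28 to 0.17 (adjusted p = 0.659). By voom among genes with at least 20 reads, the interval was -0.40 to 0.23, so no difference was resolved.

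The mRNAs of the ferritin chains differed from each other. FTL, the light chain, which helps to form the mineral core (ENSG00000087086, chr19:48965301-48966878, plus strand), fell. Its level was 1059, 818 and 812 FPKM in 3D replicates 1 to 3, against 1871, 1741 and 1424 FPKM in 2D. Every 3D library lay below every 2D library. The mean was 896 ± 141 FPKM (SD, n = 3) in 3D and 1679 ± 230 FPKM (SD, n = 3) in 2D, 1.87-fold higher in 2D. FTL changed by a log2 value of -0.91 (SE 0.16, adjusted p = 0.00304), and -1.07 after median-ratio scaling. Among the 127 protein-coding genes whose mean reached 100 FPKM, a group chosen after the data were seen, 67 (52.8%) were called lower and 21 higher, the median log2 change was -0.41, and 25 fell by more than FTL.

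FTH1, the heavy chain, which oxidises iron as it enters the shell (ENSG00000167996, chr11:61959718-61967660, minus strand), did not pass. It measured 51.4, 48.3 and 40.8 FPKM in 3D and 48.2, 52.4 and 34.6 FPKM in 2D. In both groups replicate 3 was the lowest, and the groups overlapped. The log2 change was 0.07 with a 95% confidence interval of -0.34 to 0.48 (adjusted p = 0.765), and it was -0.09 after median-ratio scaling. A change within this interval could not be resolved with 3 libraries a group. The 3 protein-coding genes nearest to FTH1 in pattern were B4GALT3, ZNF296 and NME1-NME2, with mean absolute differences of 0.0520, 0.0612 and 0.0623.

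Set against each other within a library, which removes the scaling of that library, the log2 ratio of FTH1 to FTL was -4.36, -4.08 and -4.32 in 3D and -5.28, -5.06 and -5.37 in 2D. The 3D ratios were all above the 2D ratios, by 0.98 on average. The mRNA of the light chain was therefore lower relative to that of the heavy chain. The size of the ratio itself depends on the gene lengths behind the FPKM, which are the same in every library.

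Reads from the processed copies of the ferritin genes were a small part for FTL and a larger one for FTH1. The 25 FTH1 pseudogenes in the table summed to between 11.9 and 16.4% of the FTH1 reads, and 15 of them were above 0. None of the 7 that were tested was called. The 16 FTL pseudogenes summed to between 1.24 and 1.62% of the FTL reads. Of the 2 tested, FTLP3 was lower (log2 change -0.66, from 140 to 277 reads a library) and FTLP12 higher (0.61). The call of FTLP12 rests on few reads, with 9, 9 and 11 in 3D and 5, 4 and 3 in 2D. How reads that match several copies were shared out is not given in the sources used here, so the levels of both chains are uncertain by at least these shares.

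NCOA4, the receptor that delivers ferritin to lysosomes for breakdown (ENSG00000266412, chr10:46005088-46030714, minus strand), was higher in 3D. It measured 33.3, 30.6 and 33.5 FPKM in 3D and 18.7, 19.9 and 21.3 FPKM in 2D. The groups lay far apart for their spread, with means of 32.5 ± 1.65 and 19.98 ± 1.32 FPKM (SD, n = 3 each). NCOA4 rose by 0.67 on the log2 scale (SE 0.09, adjusted p = 0.00127).

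SLC40A1, which encodes ferroportin, the iron exporter (ENSG00000138449, chr2:189560579-189583758, minus strand), was low, though detected in every library. It was listed at 0.305, 0.321 and 0.227 FPKM in 3D and 0.414, 0.350 and 0.298 FPKM in 2D, from 21 to 33 reads a library. The groups overlapped. Tested with voom among 14891 genes with at least 20 reads in at least 3 libraries, a test chosen after the data were seen, the log2 change was -0.32 with a 95% confidence interval of -0.93 to 0.28 (adjusted p = 0.333). A fall or a small rise could not be resolved at this depth.

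**Figure D2:**
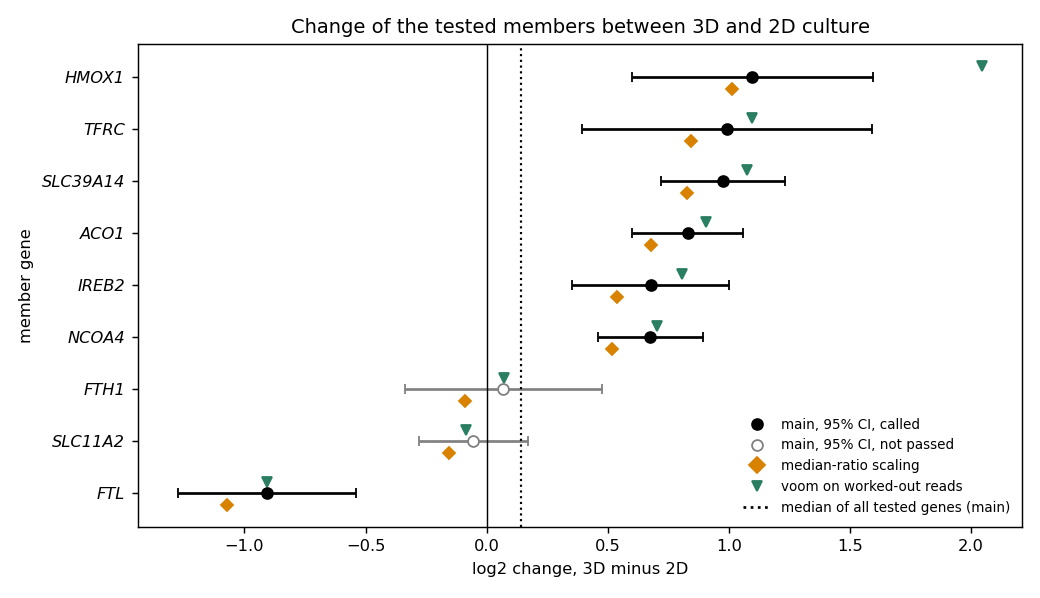
Log2 change, 3D minus 2D, of the 9 tested genes (horizontal axis), with bars for the 95% confidence interval, filled black for called genes and open grey for those that did not pass; diamonds give median-ratio scaling and triangles voom on reads worked out from the FPKM. HMOX1 to NCOA4 lie right of the dotted median of all genes (0.14), FTL lies at -0.91, and the change of HMOX1 is 1.10 in the main test and 2.05 with voom.

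HMOX1, heme oxygenase 1, which opens the heme ring and frees its iron (ENSG00000100292, chr22:35380361-35394214, plus strand), was low in flat culture and higher in the scaffold. It measured 1.33, 2.83 and 3.10 FPKM in 3D and 0.578, 0.478 and 0.601 FPKM in 2D, from 87, 191 and 249 reads against 40, 32 and 42. All 3D values were above all 2D values, and 3D replicate 1 was the lowest of its group. The means were 2.42 ± 0.954 and 0.552 ± 0.0656 FPKM (SD, n = 3 each), a ratio of 4.38. The log2 change was 1.10 (SE 0.21, adjusted p = 0.00474) on the log2(FPKM + 1) scale, which understates the change of low genes, and 2.05 (SE 0.38, adjusted p = 0.00286) by voom on worked-out reads.

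The mRNAs of both iron regulatory proteins were higher in 3D. ACO1, which encodes IRP1, an aconitase of the cytosol when it holds an iron-sulfur cluster (ENSG00000122729, chr9:32384603-32454769, plus strand), measured 15.98, 15.6 and 14.7 FPKM in 3D and 7.44, 8.37 and 8.98 FPKM in 2D. The spread within each group was small beside the gap between them. Its log2 change was 0.83 (SE 0.10, adjusted p = 0.000756), with a ratio of means of 1.87.

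IREB2, which encodes IRP2, a protein degraded when iron is plentiful (ENSG00000136381, chr15:78437431-78501456, plus strand), measured 6.25, 7.35 and 7.68 FPKM in 3D and 3.52, 3.73 and 5.02 FPKM in 2D. The highest 2D value, replicate 3, still lay under the lowest 3D value. The log2 change was 0.68 (SE 0.14, adjusted p = 0.00584), with a ratio of means of 1.73. The log2 ratio of ACO1 to IREB2 was 1.35, 1.08 and 0.94 in the 3D libraries and 1.08, 1.17 and 0.84 in 2D. The groups overlapped, and the mean difference was 0.10 (-0.02 without 3D replicate 1).

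The balance between uptake and storage or export mRNAs was followed within each library. The log2 ratio of TFRC to FTL was -5.91, -6.49 and -5.57 in 3D and -8.47, -7.91 and -7.60 in 2D. It was higher in every 3D library, by 2.00 on average. This had to follow, since TFRC was higher and FTL lower in every 3D library, so it is no separate result. The ratio of SLC40A1 to TFRC was lower in every 3D library, by a mean log2 difference of -1.41, but its numerator rests on few reads. The ratio of TFRC to FTH1 was higher by 1.02 on average, and here the groups overlapped, because 3D replicate 2 (-2.41) was lower than 2D replicate 3 (-2.23). These ratios have no test of their own, and those of TFRC to FTL and ACO1 to IREB2 were added after the data were seen.

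**Figure D3:**
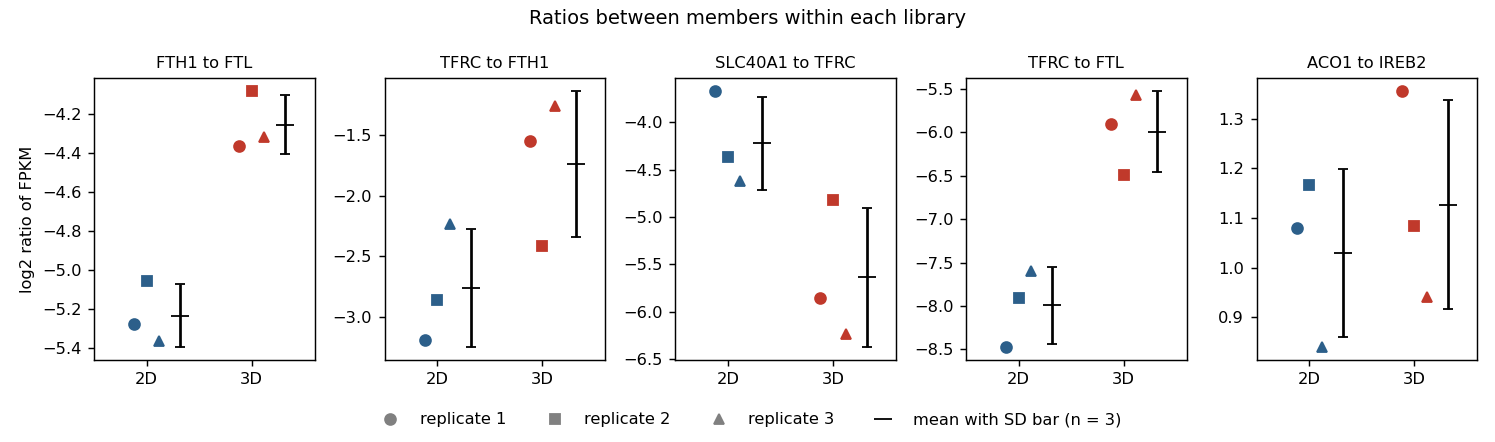
Log2 ratio of the FPKM of 2 genes within each library (vertical axes, which do not start at 0), with 2D in blue, 3D in red, shapes for replicates and bars for the mean and SD of 3 libraries. FTH1 to FTL and TFRC to FTL are higher in every 3D library, SLC40A1 to TFRC is lower in every 3D library, and the groups overlap for TFRC to FTH1 and ACO1 to IREB2.

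The order of levels depended on the gene length. By FPKM the order in 3D was FTL, FTH1, NCOA4, ACO1, SLC39A14, TFRC, IREB2, HMOX1, SLC11A2 and SLC40A1, and in 2D it was the same except that SLC11A2 stood above HMOX1. ACO1, SLC39A14 and TFRC were neighbours whose values overlapped in 3D, as did HMOX1 and SLC11A2. In 2D, ACO1 overlapped with SLC39A14 and SLC39A14 with TFRC. The length that makes the FPKM of TFRC a whole number of reads in each library was 33587 bases, while its principal transcript in GENCODE 29 has 5111. For FTH1 the lengths were 6071 and 1229, and for FTL they were 871 and 878. Reads scaled to the principal transcript and to the library, in the same way as FPKM, therefore put TFRC at 95.9 ± 31.5 (SD, n = 3) in 3D and 43.5 ± 7.64 (SD, n = 3) in 2D. On that scale TFRC ranked 3 of 10 in 3D and 4 of 10 in 2D, next to NCOA4 at 77.9 ± 3.95 and 47.9 ± 3.17. The 3D values of TFRC and NCOA4 overlapped, as did the 2D ones. FTH1 came to 231 ± 27.1 in 3D and 223 ± 46.0 in 2D, still below FTL at 889 ± 139 and 1665 ± 228. All reads of a gene were set against its principal transcript, also any that fell outside it, so these levels may be too high. The excess can be largest where the lengths differ most, as for TFRC. Ratios of FPKM between the groups do not depend on the length, since each gene has 1 length in all libraries, but the log2(FPKM + 1) changes and the minimum of 1 FPKM do, most for low genes.

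**Figure D4:**
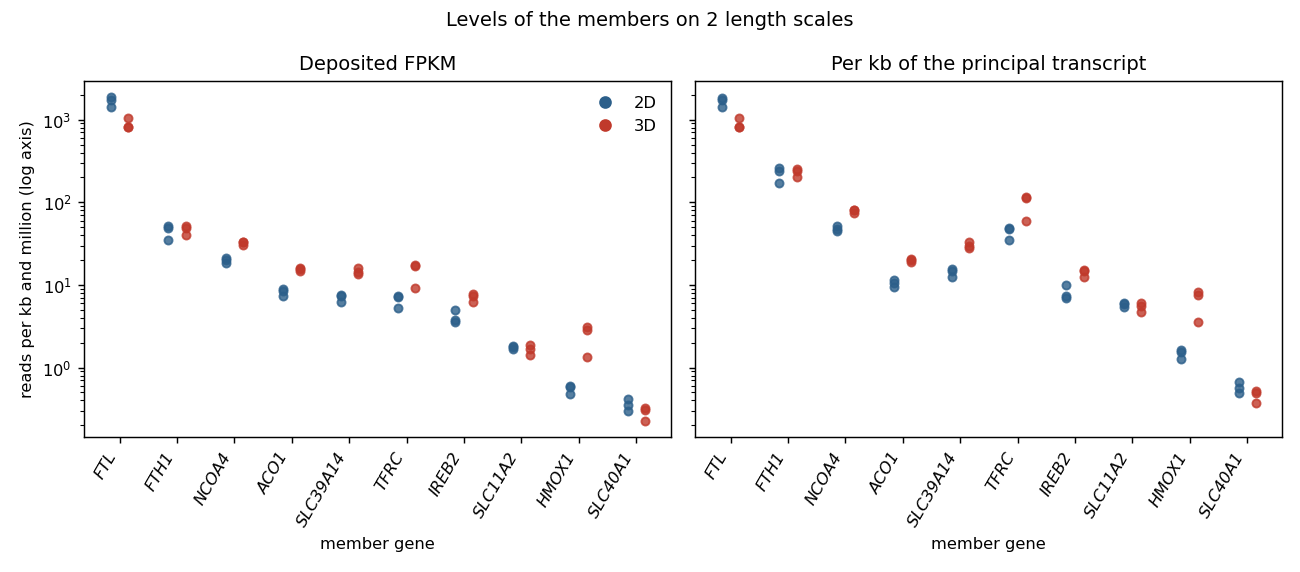
Level of each of the 10 genes as reads scaled to kilobases and library size (log axis), by the length behind the deposited FPKM on the left and by the principal GENCODE 29 transcript on the right, with each point a library, 2D in blue and 3D in red. FTL leads on both scales, and TFRC moves from rank 6 to rank 3 in 3D and rank 4 in 2D.

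The 101 genes of 11 other lists gave the setting for the set. Most lists cover iron and heme handling, but transcription regulators and NRF2 targets outside iron handling are counted too. Of the 81 tested, 29 were higher and 13 lower in 3D, with a median log2 change of 0.12, close to the 0.14 of all genes. In the transferrin cycle, a list that does not hold TFRC, 1 of 7 tested genes was higher and 2 were lower, with a median of -0.18. MCOLN1, a lysosomal cation channel that also passes iron, rose by 0.79 (SE 0.09, adjusted p = 0.000608). SNX3, a sorting protein that returns the transferrin receptor to the surface, was lower, with a log2 change of -0.52 (adjusted p = 0.00558). Among the cytosolic iron chaperones 2 of 5 were higher and 1 lower under the main scaling, and after median-ratio scaling 0 were higher and 2 lower. Without 2D replicate 2 none was called higher, and without any other library except 3D replicate 1 the count was 1. PCBP3 had a log2 change of -0.95 and GLRX3 one of 0.41.

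The machinery that degrades IRP2 and NCOA4 was split, with 2 of 5 genes higher and 1 lower. HERC2, a ubiquitin ligase known to target NCOA4, rose from 4.32 ± 0.700 to 9.19 ± 1.22 FPKM (SD, n = 3 each), a log2 change of 0.94 (adjusted p = 0.00161). CUL1, the scaffold of the ligase that degrades IRP2, rose by 0.52. FBXL5, its iron-sensing subunit, was lower with a log2 change of -0.39 (adjusted p = 0.0208) and a mean of 5.42 FPKM in 3D against 7.46 in 2D. That call was lost with no low-value filter (adjusted p = 0.0507), and no gene of the list was called lower when 3D replicate 2 was left out, nor without 2D replicate 1, nor without 2D replicate 3. On the export side, the ferroxidase genes CP, HEPH and HEPHL1 and the hormone gene HAMP were at or near 0 in all libraries. Of the 2 tested genes of the hepcidin axis, NEO1 was higher (log2 change 0.96) and BMP6 lower (-0.42, adjusted p = 0.0212). The call of BMP6 was lost with no low-value filter (adjusted p = 0.0543) and when any library other than 3D replicate 1 or 2D replicate 2 was left out (adjusted p up to 0.0733).

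Most genes that build iron-sulfur clusters did not pass. In mitochondria 4 of 18 were higher and 1 lower, with a median of 0.05. HSPA9, the mitochondrial chaperone that hands clusters on, rose by 1.30 (SE 0.11, adjusted p = 0.000336), from 7.68 ± 0.866 to 20.4 ± 1.497 FPKM (SD, n = 3 each). ABCB10, a transporter of the inner membrane linked to heme synthesis, rose by 0.78. In the cytosol 3 of 9 were higher and 1 lower. NDOR1 and CIAPIN1, the electron donors of cytosolic cluster assembly, rose by 1.24 and 0.86.

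Heme synthesis and heme breakdown differed in their counts. In synthesis 4 of 8 tested genes were higher and 0 lower under both scalings, with a median of 0.34. PPOX, a later enzyme of the pathway, was under the FPKM minimum and is not among the 8. It stood at 0.582 ± 0.0325 FPKM in 3D and 1.01 ± 0.0991 in 2D (SD, n = 3 each) and was lower by voom among genes with at least 20 reads (log2 change -0.79, adjusted p = 0.00308). FECH, of the same list and also under the minimum, went the other way. It stood at 1.12 ± 0.145 FPKM in 3D and 0.817 ± 0.0721 in 2D (SD, n = 3 each) and was higher by that voom test (log2 change 0.45, adjusted p = 0.0296). UROS and UROD, consecutive enzymes of the pathway, rose by 1.12 (adjusted p = 0.000301) and 0.90 (adjusted p = 0.000555). In breakdown and transport, a list that does not hold HMOX1, 2 of 9 were higher and 4 lower, with a median of -0.17. After median-ratio scaling 1 was higher and 4 lower, with a median of -0.25, and 1 was higher when any library other than 3D replicate 3 was left out. LRP1, a receptor for heme bound to hemopexin among many other ligands, was lower by a log2 change of -1.45 (adjusted p = 0.000720). BLVRA, a biliverdin reductase that acts after heme oxygenase, was lower with a change of -0.62. HMOX1 was thus called in the direction opposite to the biliverdin reductase that follows it, and the difference between the 2 changes was not tested.

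Of 4 tested mRNAs outside the set that are known for an iron-responsive element, 3 were higher and 0 lower, and after median-ratio scaling 1 was higher. EPAS1, the hypoxia factor HIF-2 alpha, had a log2 change of 0.77 (adjusted p = 0.00859). The mRNAs with a known element in the 5′ UTR thus moved in both directions, since FTL fell.

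Among regulators of HMOX1 and ferritin genes, MAFF and MAFK, small MAF partners of both NRF2 and its rival BACH1, were lower, with log2 changes of -1.48 (adjusted p = 0.000313) and -1.38 (adjusted p = 0.000407). KEAP1, which holds NRF2 back, rose by 0.80 on the log2 scale, and BACH1 did not pass (-0.25, adjusted p = 0.248). NFE2L2, which encodes NRF2, was under the FPKM minimum, with a length of 82559 bases behind its FPKM against 5979 exon bases in GENCODE 29. By voom among genes with at least 20 reads, its log2 change was 0.26 with a 95% confidence interval of -0.09 to 0.60 (adjusted p = 0.184), from 349 to 548 reads a library. Of 9 NRF2 targets outside iron handling 6 were higher and 0 lower, with a median of 0.47, and after median-ratio scaling 6 were higher and 1 lower. GCLM, of glutathione synthesis, rose by 1.09 (adjusted p = 0.000336). SLC7A11, the cystine importer, rose by 1.04 (SE 0.24, adjusted p = 0.00948). AIFM2, a membrane reductase that limits lipid peroxidation, rose by 0.52. No list was tested as a set.

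**Figure D5:**
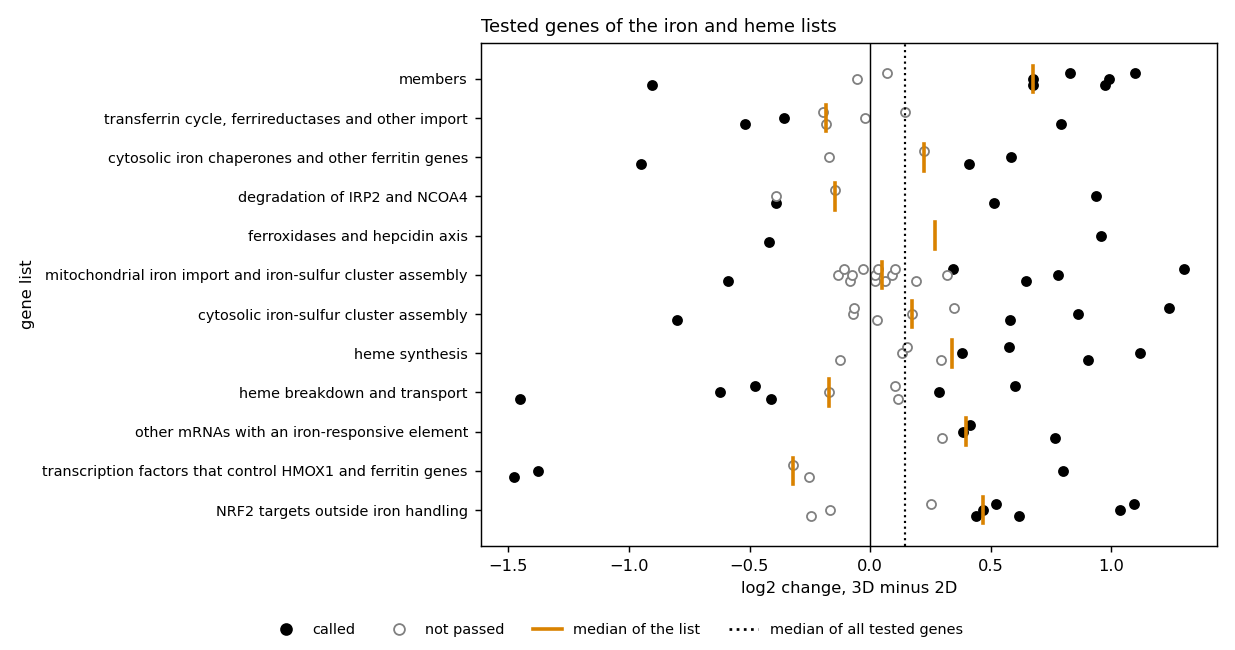
Log2 change, 3D minus 2D (horizontal axis), of each tested gene of the set of 10 and of the 11 other lists (rows), filled where called and open where not, with an orange bar for the median of the list and a dotted line for the median of all genes (0.14). The set has its median at 0.68, while the medians of the transcription factors (-0.32), the transferrin cycle (-0.18), heme breakdown (-0.17) and the degradation of IRP2 and NCOA4 (-0.15) lie left of 0.

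Promoter letters were searched because 6 genes of the set were called higher, though whether they move together was not tested. RefSeq windows on GRCh38.p14 matched 7 of the 10 genes, with 12 windows, and the 250 bases before the start were read on both strands. The hypoxia response core (ACGTG or GCGTG) was in 43.2% of all 35116 windows, the E-box CACGTG, which overlaps it, in 6.34%, and the antioxidant response core TGACNNNGC in 10.9%. Of the 12 windows, 6 held the hypoxia core: 1 each of TFRC, ACO1 and IREB2, which rose, 1 of FTL, which fell, and 2 of SLC11A2, which did not pass. The windows of NCOA4 and SLC40A1 had none. None of the 12 windows held CACGTG or TGACNNNGC. FTH1, HMOX1 and SLC39A14 had no window, so their promoters were not searched for any of these letters.

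The libraries held 13332393 to 16361118 reads summed over genes. Log2 values correlated at 0.968 to 0.981 within groups and 0.886 to 0.920 between them. Of 6 markers of mesenchymal and bone-lineage cells, VIM, COL1A1 and SPARC were above the minimum, and COL1A2, RUNX2 and ALPL were not tested. The tested markers of the line did not move together. VIM was lower in 3D, at 294 ± 2.87 FPKM against 598 ± 127 (SD, n = 3 each). Its log2 change was -0.999 (adjusted p = 0.00191). COL1A1 was higher, at 43.7 ± 6.75 FPKM against 8.28 ± 1.61 (SD, n = 3 each). Its log2 change was 2.27 (adjusted p = 0.000267). SPARC did not pass (log2 change -0.11, adjusted p = 0.432), and its groups overlapped. Markers of erythroid cells, which are rich in iron genes, did not separate the groups. Their summed level was 2.44 to 8.16 FPKM in 3D and 2.43 to 30.2 FPKM in 2D, almost all of it from the globin genes. It was 22.7 and 30.2 FPKM in 2D replicates 1 and 2, but 2D replicate 3 lay lowest of all libraries. HBA1, HBA2 and HBB did not pass (adjusted p = 0.206, 0.139 and 0.155). ALAS2 and EPB42 were at 0 in every library. Globin reads summed to 67 to 272 in 3D libraries, beside 9827 to 12339 of FTL, and to 73 to 791 in 2D libraries, beside 17723 to 23046. Markers of macrophages summed to 4.30 to 6.62 FPKM in 3D and 18.0 to 25.6 FPKM in 2D, mostly from CD68, a lysosomal gene (log2 change -2.20, adjusted p = 0.000313). PTPRC, CSF1R and CD163 were near 0 and AIF1 was at 0, while CD14 (means of 0.874 FPKM in 3D and 0.716 in 2D) and LYZ (1.09 and 1.504 FPKM) were detected in every library and did not pass. The part of these markers in the change of FTL and of the other genes was not tested. Markers of osteoclasts, adipocytes and endothelial cells summed to at most 1.44 FPKM in any library. The adipocyte sum was higher in every 3D library, at 0.926 to 1.44 FPKM against 0.467 to 0.719 in 2D, mostly from FABP4. That gene was under the minimum and was higher by voom among genes with at least 20 reads (log2 change 1.15, adjusted p = 0.00921). The groups overlapped for the osteoclast and endothelial sums.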

How the data were processed

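Poly(A)-enriched RNA extracted with TRIzol was sequenced from 3 scaffold (3D) and 3 flat (2D) libraries, per the labels' protocols. The authors deposited FPKM values for 62703 Ensembl gene IDs and 6 libraries. The submitters' processing notes name FastQC, fastp, HISAT2, StringTie, edgeR and GRCh38, without versions or roles. Not given in the sources used here are the annotation release, the strand setting and how reads with several matches were counted, so reads of overlapping genes cannot be told apart. Of the overlapping genes in GENCODE 29, BEST1, on the strand opposite to FTH1, had at most 21 reads.

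The 10 genes and all lists were chosen with earlier results of these data known. Named genes were the whole set, and from each list the 2 tested genes with the smallest adjusted p and any called with an absolute log2 change over 1. A gene that this rule names is not reported here. FBXL5, KEAP1, PPOX, FECH, FABP4 and the pseudogenes FTLP3 and FTLP12 were named after their values were seen. The name table held 62625 of the IDs, and positions are those of GENCODE 29.

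Genes with at least 1 FPKM in at least 3 libraries (12843) were compared as log2(FPKM + 1) in R 4.3.3 by limma 3.58.1 with statmod 1.5.0 (lmFit; trended, robust eBayes), with no covariates, and the procedure was tested on simulated data. An exact permutation test of 3 against 3 cannot go below 0.1. Whole reads were worked out from FPKM steps and gene lengths (within 0.01 reads), and they also give the depth. A length was found for 33241 of 33243 genes above 0. The rule also accepts lengths that give 0 reads, so for genes near 0 a length found need not be the true one. Alternatives covered the pseudocount, the filter, scaling, gene classes, the variance model, the replicate block, voom and leaving out each library. Figures used matplotlib 3.10.9.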

Additional observations from a re-analysis of the deposited data

How the results depend on the processing

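The 6 higher and 1 lower calls in the set kept their direction under every alternative run, and TFRC alone lost its call (adjusted p = 0.0557 with no low-value filter; HMOX1 and SLC11A2 could not be tested at a minimum of 5 FPKM). With each replicate left out in turn, 5 to 6 genes of the set were called higher and 1 lower, and the change of TFRC ranged from 0.84 to 1.28. The sign of FTH1, never called, turned to -0.09 under median-ratio and under upper-quartile scaling (-0.0912 and -0.0906), to -0.0006 without 3D replicate 1 and to -0.11 without 2D replicate 3. SLC11A2 turned to 0.0068 without 3D replicate 1, and the mean difference of the log2 ratio of ACO1 to IREB2 ranged from -0.0164 to 0.19. The cause of these turns was not tested.

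At a minimum of 5 FPKM, fewer genes were tested, and 2134 were called higher and 1319 lower over all genes. Among the 101 genes of the other lists, 18 were higher and 8 lower. Without each replicate the counts over all genes were 3475 to 4065 higher and 1947 to 2182 lower. Among the genes of the other lists, 25 to 30 were higher and 8 to 14 lower, with 8 lower without 3D replicate 2 or 2D replicate 3. One lower call each in the transferrin cycle (without any library other than 3D replicate 1 or 2D replicate 1) and in mitochondrial cluster assembly (without 3D replicate 2, and likewise 2D replicate 1 and 2D replicate 3) was lost, and 1 NRF2 target was lower without 3D replicate 3. With voom on the reads, SLC40A1 had a log2 change of -0.32, against -0.08 with no filter on the log2(FPKM + 1) scale.

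With the replicate number as a block, 4291 genes were higher and 2382 lower, and no call in the set changed. Whether the numbers pair the libraries could not be settled with 3 libraries a group. Deviations of same-numbered libraries correlated at 0.084, -0.017 and 0.184, and not every library correlated best with its own number. With the block the SE fell for some genes of the set, as for FTH1 (0.1723 to 0.0989), and rose for others, as for SLC39A14 (0.1086 to 0.1199). Depth limits SLC40A1 most, with 21 to 33 reads, and 3 libraries a group limit the precision of all changes.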
